A study of Bos taurus with 24 samples.

Results

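The genes described here are 6 genes of bovine granulosa cells whose fitted level increased steeply with the quality of the blastocysts that a cow's own oocytes gave in vitro. They are listed by Ensembl identifier as ENSBTAG00000046848, ENSBTAG00000016424, ENSBTAG00000014762, ENSBTAG00000020895, ENSBTAG00000007881 and ENSBTAG00000032183. They were chosen from these data: of the 24615 genes listed for every cow, 12868 passed a low-count filter and were fitted, 103 of these (0.8%) had a slope above 1 log2 unit per unit of morphology score, and the 6 genes have the smallest p-values among the 103. The values on morphology are therefore given as a description, without a test. The gene table used here held none of the 6 identifiers, so the genes are named by identifier only and their products, positions and sequences are not given.

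Granulosa cells line the antral follicle and surround the oocyte, which they supply with metabolites and signals while it grows and matures. They respond to gonadotropins, make oestradiol and change their expression as the follicle grows, is selected or regresses. A blastocyst consists of an inner cell mass, from which the embryo proper forms, and an outer trophoblast layer, which gives rise to the placenta. Its grade under the microscope is widely used to judge how well an embryo may develop after transfer.

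An RNA library was sequenced for each of 24 Holstein cows, all of them in the luteal phase and not synchronised. The study calls the cows multiparous, with a range of calvings that starts at 1. Each library came from the pooled cells of all antral follicles of both ovaries of a cow. Leukocytes had first been reduced with anti-CD45 beads and erythrocytes with a lysis buffer. After the granulosa cells had been collected, semen of bulls with a high Nordic Total Merit (NTM) index was used for 15 of the cows (high-NTM cows) and semen of bulls with a low index for the other 9 (low-NTM cows). Each cow has 3 scores of in vitro production: BL rate, the percentage of inseminated oocytes that became blastocysts, and the kinetic and morphology scores, which average over the cow's blastocysts the stage of expansion and the visual quality. The morphology score runs from 0 to 3 in these cows, and cows 1 and 15, which gave no blastocysts, have 0 on all 3 scores. Cow 8 was left out by the study as an outlier library, so the main values are from 23 cows (15 high-NTM and 8 low-NTM).

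The libraries held 15525201 to 27074496 read pairs assigned to genes (median 23513294.5). At these depths 3 counts correspond to 0.0900 to 0.206 cpm (counts scaled to a common library size). Levels are given as cpm scaled by the TMM method, which corrects for library size and composition but not for gene length, so that a level can be compared between cows but not between genes. Cow 24 had the fewest counts and the most genes with a count (21629, against 15559 to 17771 in the other 22 cows of the fit). The labelled cell type could not be checked against marker genes, since no identifier could be given a symbol. All 6 genes are among those that passed the low-count filter, with 1 cpm or more in 13, 5, 14, 21, 18 and 16 of the 23 cows in the order listed above. The lowest morphology scores among those cows were 2, 2.29, 1.5, 0, 1 and 1 in the same order. ENSBTAG00000046848 and ENSBTAG00000016424 thus passed the filter only through cows scored 2 or more. In such pooled samples fewer cells of a type and less RNA per cell cannot be told apart.

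ENSBTAG00000046848 was nearly undetected in the cows without blastocysts. Cow 1 had 1 count (0.0444 cpm, exact 95% Poisson interval 0.00113 to 0.248, counting error only) and cow 15 had 3 counts (0.128 cpm, 0.0265 to 0.375). The 3 cows with a morphology score of 1 to 1.5 had 0.327 (cow 13), 0.735 (cow 14) and 0.751 cpm (cow 9). The medians were higher in each class that followed: the 7 cows scored 1.86 to 2.33 lay between 0.220 and 2.79 cpm with a median of 1.22, and the 7 cows scored 2.5 to 2.75 lay between 0.465 and 3.64 with a median of 1.76. The 4 cows with the full score of 3 had 0.597 (cow 21), 2.06 (cow 22), 2.29 (cow 3) and 3.24 cpm (cow 5). Each of the 21 cows with blastocysts was above both cows without, while the classes above a score of 0 overlapped with their neighbours.

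ENSBTAG00000016424 had a median of 0.509 cpm and reached 1 cpm in 5 of the 23 cows. No read pair was counted in cow 1, for which the level of 3 counts, 0.133 cpm, is taken as the limit (exact Poisson upper bound 0.164 cpm), and 1 count was found in cow 15 (0.0427 cpm). Cows scored 1 to 1.5 had 0.0818 (cow 13), 0.235 (cow 9) and 0.387 cpm (cow 14). The classes of 1.86 to 2.33 and of 2.5 to 2.75 ranged from 0.0382 to 1.99 cpm (median 0.4996) and from 0.479 to 1.65 cpm (median 0.747). At a score of 3 the values were 0.176 (cow 21), 0.676 (cow 5), 0.981 (cow 22) and 1.33 cpm (cow 3). The gene passed the low-count filter, which asks for 1 cpm in at least 3 cows, through 5 cows, all with scores of 2.29 or more, so that its place among the tested genes depended on the cows in which it was high. Its highest value came from cow 24, the library with the fewest counts, and cow 12, with a score of 2 and 1 count, was below cow 15.

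ENSBTAG00000014762 had 3 counts in cow 1 (0.133 cpm) and 5 in cow 15 (0.213 cpm). At scores of 1 to 1.5 the 3 cows were spread widely, with 0.164 (cow 13), 0.329 (cow 9) and 1.28 cpm (cow 14). The medians of the next classes were 1.23 (range 0.153 to 1.86) and 2.24 cpm (range 1.32 to 3.78). The cows with a score of 3 did not continue this order, since their values of 0.575 (cow 22), 0.878 (cow 21), 2.11 (cow 3) and 2.3 cpm (cow 5) have a median of 1.49. Cows 12 and 13, which did give blastocysts, were below cow 15.

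ENSBTAG00000020895 was the only one of the 6 genes with at least 1 cpm in over 90% of the cows (21 of 23). Cow 1 had 7 counts (0.311 cpm) and cow 15 had 25 (1.07 cpm, Poisson interval 0.692 to 1.58). The cows scored 1 to 1.5 had 2.21 (cow 13), 2.67 (cow 14) and 4.13 cpm (cow 9). Medians were 3.65 cpm at 1.86 to 2.33 (range 0.955 to 11.3) and 6.73 cpm at 2.5 to 2.75 (range 2.21 to 11.1). With 2.60 (cow 21), 6.05 (cow 22), 7.16 (cow 3) and 11.2 cpm (cow 5), the cows at a score of 3 had a median of 6.60, about the level of the class before. Cow 12 was again below cow 15.

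ENSBTAG00000007881 had 3 counts in cow 1 (0.133 cpm) and 4 in cow 15 (0.171 cpm), and all 21 cows with blastocysts were above both. Among those cows the order of the classes was loose. At scores of 1 to 1.5 the values were 1.17 (cow 9), 2.54 (cow 13) and 3.02 cpm (cow 14), while the median was 1.53 cpm at 1.86 to 2.33 (range 0.382 to 5.50) and 2.73 cpm at 2.5 to 2.75 (range 0.746 to 7.34). The cows at a score of 3 ran from 0.843 (cow 21) and 1.56 (cow 22) to 6.53 (cow 5) and 23.3 cpm (cow 3). The value of cow 3 stands apart, the next highest of the 23 cows being 7.34 cpm in cow 2.

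ENSBTAG00000032183 had 3 counts in cow 1 (0.133 cpm) and 9 in cow 15 (0.384 cpm). It was still low at scores of 1 to 1.5, with 0.286 (cow 13), 0.348 (cow 14) and 1.31 cpm (cow 9). The medians then were 3.12 cpm at 1.86 to 2.33 (range 0.330 to 4.16) and 5.67 cpm at 2.5 to 2.75 (range 2.55 to 6.89). At a score of 3 the gene was at 0.338 (cow 22), 2.11 (cow 3), 3.44 (cow 21) and 5.18 cpm (cow 5), with a lower median of 2.78. Cows 13, 14, 16 and 22 were at or below cow 15, so that this gene overlapped most with the cows without blastocysts.

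**Figure D1:**
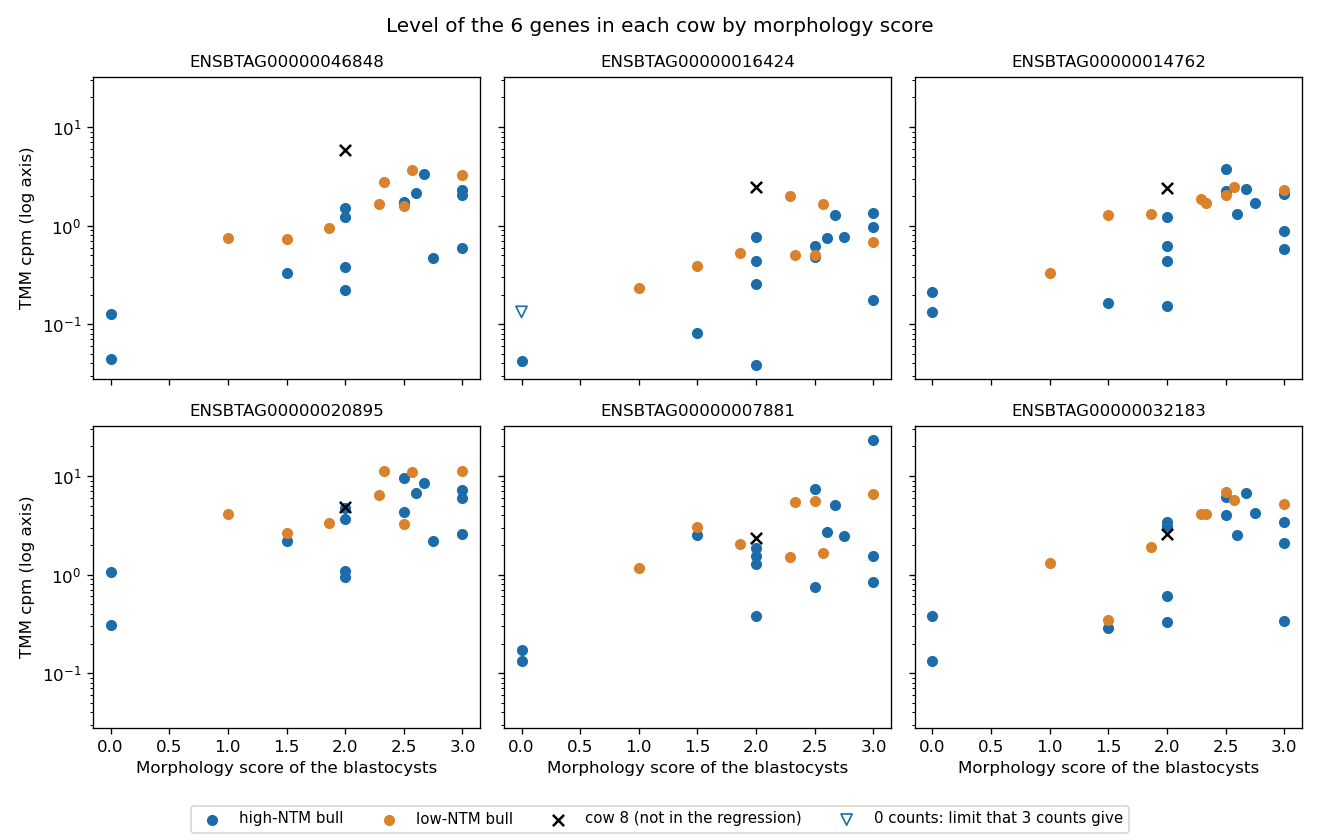
TMM cpm of each of the 6 genes (log axis) against the morphology score, with 1 point per cow coloured by the NTM class of the bull, a cross for cow 8 and an open triangle at 0.133 cpm where no read pair was counted. For ENSBTAG00000046848 and ENSBTAG00000007881 both cows at a score of 0 are below the other 21 cows, for the other 4 genes 1 to 4 cows with blastocysts are at or below cow 15, and at a score of 3 the 4 cows span 0.338 to 5.18 cpm for ENSBTAG00000032183 and 0.843 to 23.3 cpm for ENSBTAG00000007881.

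Across genes, the same few cows were low. Cow 1 was the lowest of the 23 cows for each of the 6 genes, and cow 15 ranked 2 to 6 from the bottom. Cows 12 and 16, both with a score of 2, were below the median cow for all 6 genes, with ranks of 2 to 7 and 3 to 8. Cow 21 had a score of 3 but was below the median cow for 5 of the 6 genes. Cows 2, 5 and 7, with scores of 2.5 to 3, were above the median cow for all 6. The spread left after morphology and NTM class had been removed was 0.80 to 1.22 (SD of log2 cpm) for the 6 genes, against a median of 0.35 over the 12868 genes. The 12868 genes were not matched to the 6 for level or slope. The part of low counts and of the rule of choice in this spread was not tested.

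**Figure D2:**
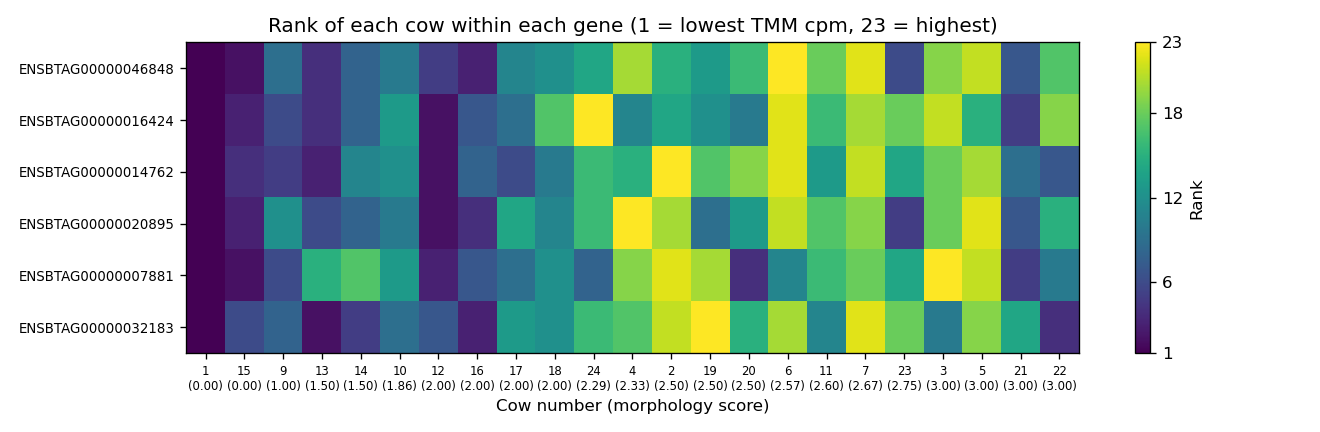
Rank of each of the 23 cows within each gene (colour, from 1 for the lowest TMM cpm to 23 for the highest), with cows ordered from left to right by morphology score, given in brackets. Dark columns mark cows low for all genes (cows 1 and 15 at a score of 0, and cows 12 and 16 at a score of 2), and cow 21, at a score of 3, is the lowest cow of that score for 4 of the 6 genes.

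In the regression of counts on the morphology score with the NTM class as covariate, the slopes that served to choose the genes were 1.45 (SE 0.242) for ENSBTAG00000046848, 1.55 (0.326) for ENSBTAG00000016424, 1.25 (0.247) for ENSBTAG00000014762, 1.05 (0.205) for ENSBTAG00000020895, 1.57 (0.330) for ENSBTAG00000007881 and 1.42 (0.299) for ENSBTAG00000032183, in log2 units per unit of score over 23 cows. These slopes correspond to 2.07-fold to 2.97-fold per unit of score. The median slope was 1.44, beside 0.0067 over all genes fitted, of which 51.9% had a slope above 0. The p-values of the choice ran from 9.34e-06 for ENSBTAG00000046848 to 3.50e-04 for ENSBTAG00000032183, the last gene inside. Just outside were ENSBTAG00000004562, with a slope of 2.64 (SE 0.820) and a p of 3.90e-04, and ENSBTAG00000006143, with a slope of 1.08 (SE 0.242) and a p of 3.95e-04. The lowest slope inside, 1.05, is close to the limit of 1. The choice went by rank and did not require a false discovery rate (FDR), which in edgeR was 0.0601 to 0.269 for the 6 genes.

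The slopes were then computed again without cows 1 and 15, since their score of 0 stands for the absence of blastocysts and they had the lowest or nearly the lowest levels. Over the 21 cows with blastocysts, where scores run from 1 to 3, the slopes were 1.34 (SE 0.351) for ENSBTAG00000046848, 1.39 (0.418) for ENSBTAG00000016424, 1.43 (0.380) for ENSBTAG00000014762, 0.99 (0.324) for ENSBTAG00000020895, 1.35 (0.503) for ENSBTAG00000007881 and 1.48 (0.464) for ENSBTAG00000032183. All 6 slopes were above 0 and 5 of the 6 were above 1. They were less precise, with standard errors 1.28 to 1.58 times as large, and the smallest FDR of any gene in this refit was 0.45 (edgeR). Of all 12868 genes, 646 (5.02%) had a slope above 1 in these 21 cows, more than in the 23 cows, and the median over all genes was -0.0084. These 21 cows are among the 23 that chose the genes, so the refit is no independent check of the slopes.

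Single cows, the fitting method and the main axis of variation moved these slopes. Without cow 3 the 21-cow slope of ENSBTAG00000007881 was 0.73 and the number of slopes above 1 was 4, and without cow 1 alone the slope of ENSBTAG00000020895 in the remaining 22 cows was 0.92. In limma voom with sample quality weights the 23-cow slope of ENSBTAG00000016424 was 0.98, and 4 of the 6 slopes were above 1. The first principal component of log2 cpm held 38.1% of the variance over the 23 cows. The study reports that the first component of its own expression data correlated with the RNA integrity number. Whether the component used here does so was not tested, since the labels give no integrity value per cow. Cows 12, 16 and 21 had its lowest values (-95.3, -70.1 and -57.2), and cow 19 had the highest (88.1). With this component as a further covariate the 23-cow slopes were 0.83 to 1.22, with ENSBTAG00000014762 (0.97) and ENSBTAG00000020895 (0.83) under 1. In the 21 cows with the component of those cows as covariate, the slopes were 0.43 for ENSBTAG00000007881, 0.65 for ENSBTAG00000020895, 0.98 for both ENSBTAG00000014762 and ENSBTAG00000016424, 1.02 for ENSBTAG00000046848 and 1.16 for ENSBTAG00000032183.

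**Figure D3:**
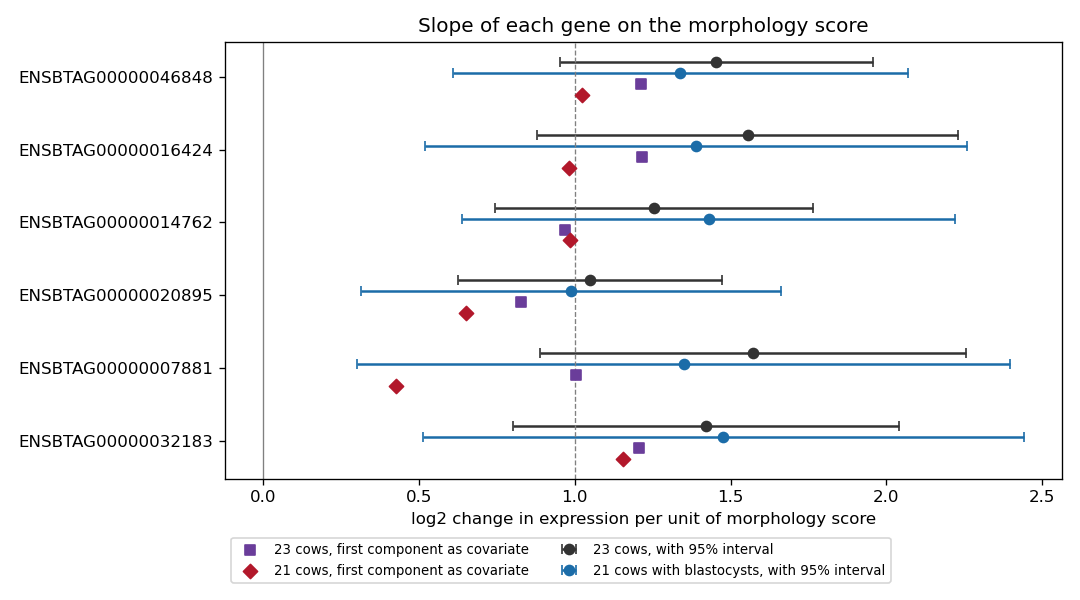
Slope of each gene on the morphology score in log2 units per unit of score, as circles with 95% intervals for the 23 cows (black) and the 21 cows with blastocysts (blue), and as squares and diamonds for the same cows with the first principal component as covariate. The blue circles lie between 0.99 and 1.48, and the diamonds between 0.43 and 1.16.

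Within each NTM class the slopes were also above 0. They were 1.09 to 1.76 in the 15 high-NTM cows, which include both cows without blastocysts, and 0.93 to 1.60 in the 8 low-NTM cows, whose scores run from 1 to 3. These cows are the ones that chose the genes, so the slopes within a class are no independent check. The rule did not use the difference between the classes, but it ranked genes under a common slope for both. A small difference is therefore no independent check either. The difference was smallest for ENSBTAG00000014762, at -0.08 (SE 0.598, low minus high), and largest for ENSBTAG00000007881, at -0.78 (SE 0.786). None of the 6 differences passed the threshold (edgeR, FDR of 1.00 for each, smallest unadjusted p of 0.315), nor did any of the 12868 genes, of which 169 (1.31%) had an unadjusted p under 0.05. The standard errors of the 6 differences were 0.519 to 0.786, so that a difference of 1 log2 unit per unit of score would have been under 2 standard errors.

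Co-expression was measured for the 15 pairs of the 6 genes, of which 5 passed the test described here. On log2 cpm as measured, Pearson's r of the 15 pairs ran from 0.53 to 0.95 with a median of 0.75, which the shared slope on morphology enters. After a linear fit on morphology and NTM class had been removed from each gene, all 15 correlations were still positive. They ran from 0.094 to 0.873, with a median of 0.417. A shared relation to the score that is not a straight line stays in these values. Over all 82786278 pairs of tested genes, 49.5% were positive, the median was -0.005, and 14.1% reached the median of the 15 pairs. The pairs share 6 genes and the same 23 libraries and are not independent of each other.

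The closest pair by far was ENSBTAG00000046848 and ENSBTAG00000020895 (r = 0.873 and rho = 0.854 over 23 cows, two-sided permutation test, p = 1e-05, the smallest that 100000 resamples can give, 0.00015 after Benjamini-Hochberg adjustment over the 15 pairs). Only 0.201% of all pairs of genes were as high. A further 4 pairs passed the adjusted threshold, each with an adjusted p of 0.0151 by the same permutation test. They were ENSBTAG00000046848 and ENSBTAG00000016424 (r = 0.595, rho = 0.623), ENSBTAG00000014762 and ENSBTAG00000032183 (0.583 and 0.560), ENSBTAG00000016424 and ENSBTAG00000014762 (0.571 and 0.572) and ENSBTAG00000016424 and ENSBTAG00000020895 (0.562 and 0.507). Of all pairs of genes, 6.57% had an r as high as the last of these. ENSBTAG00000016424 was below 1 TMM cpm in 19 of the 23 cows. It and ENSBTAG00000046848 passed the low-count filter only through cows scored 2 or more. The part of low counts and of the filter in these correlations was not tested. ENSBTAG00000007881 was in none of the 5 pairs, and its r with ENSBTAG00000032183 was 0.094 (rho = 0.121, adjusted permutation p = 0.668). By Spearman's rho 9 of the 15 pairs passed.

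When the 2 cows most distant from the median of the first gene were dropped, 14 of the 15 correlations stayed positive, with a range of -0.112 to 0.854. The pair of ENSBTAG00000016424 with ENSBTAG00000014762 fell to 0.365 and that with ENSBTAG00000020895 to 0.353. When the first principal component was removed as well, only the pair of ENSBTAG00000046848 and ENSBTAG00000020895 passed (r = 0.843, adjusted permutation p = 0.00015), and the median of the 15 pairs was 0.262. The number of pairs that passed fell to 3 without cow 12 and to 2 without cow 21, and rose to 8 without cow 23. The closest pair passed each time, with r between 0.853 and 0.887.

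**Figure D4:**
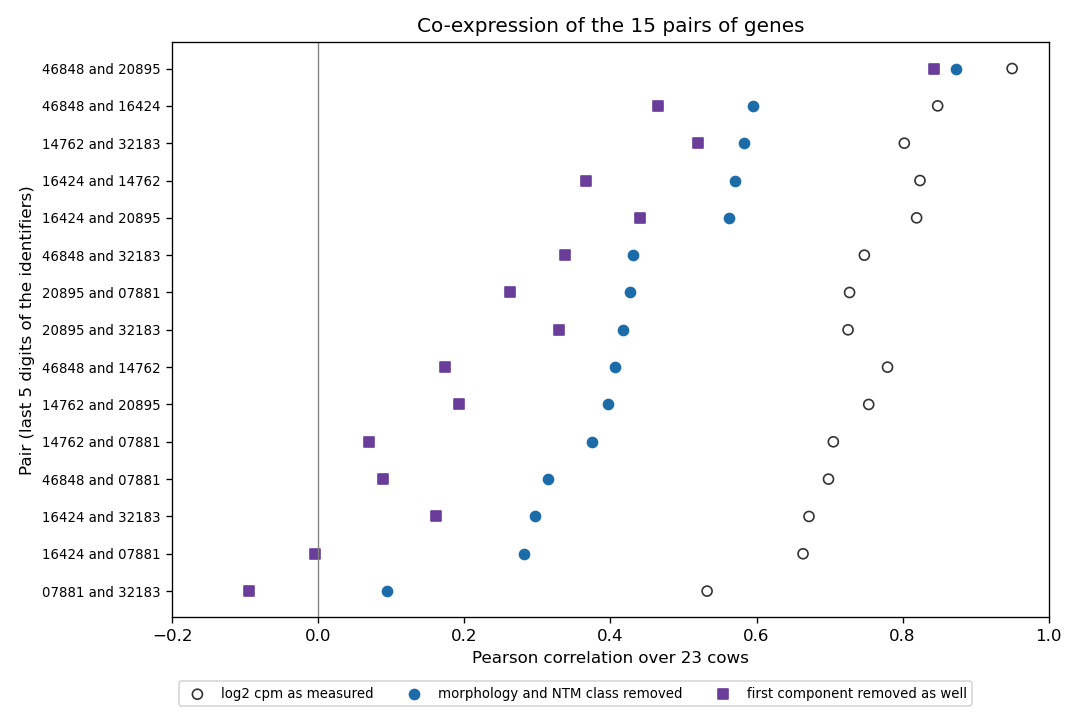
Pearson correlation of the 15 pairs over the 23 cows, as open circles for log2 cpm as measured, filled circles after removal of morphology and NTM class, and squares after removal of the first principal component as well. Pairs are named by the last digits of their identifiers and ordered by the filled circles, which run from 0.094 to 0.873, and the top pair stays at 0.843 in the squares while the lowest is at -0.094.

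The residual levels were set beside 3 measures of the libraries, as 18 relations. Morphology and NTM class had been removed from these measures too. With the first principal component r was positive for all 6 genes, from 0.316 for ENSBTAG00000032183 to 0.613 for ENSBTAG00000014762. Of these, 3 passed by Pearson's r (adjusted permutation p of 0.0374 for ENSBTAG00000014762 and 0.0405 for ENSBTAG00000016424 and ENSBTAG00000007881) and none by Spearman's rho, which ran from 0.338 to 0.531 (adjusted permutation p of 0.0628 or more). When the 2 most extreme cows on the component were dropped, r was 0.170 to 0.440. With the logarithm of the total count, r was -0.559 to -0.030, and only ENSBTAG00000016424 passed (r = -0.559, rho = -0.414, adjusted permutation p of 0.0405 and 0.11, r = -0.375 without the 2 farthest cows). With the number of genes that had a count, r was -0.210 to 0.503 and rho -0.075 to 0.558, and none passed (adjusted permutation p of 0.0612 or more for r and 0.0628 or more for rho). The part of these measures in the slopes and in the co-expression was not tested beyond the fits with the first component.

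For each gene the tested genes with the most similar pattern were taken by Pearson's r of log2 cpm over the 23 cows, as a description. The nearest gene to ENSBTAG00000046848 was ENSBTAG00000020895 (r = 0.95), and both had ENSBTAG00000014465 among their 3 nearest genes (0.842 and 0.867). ENSBTAG00000007881 followed ENSBTAG00000007883 most closely (0.970), also after morphology and NTM class had been removed (0.973). ENSBTAG00000032183 was nearest to ENSBTAG00000008294 (0.934), ENSBTAG00000014762 to ENSBTAG00000009019 (0.926) and ENSBTAG00000016424 to ENSBTAG00000016784 (0.865). The slopes of these 5 non-member genes on morphology were 0.62 to 1.12. Among the other non-member genes within the 3 nearest of each gene, not named here, the slopes ran from 0.16 to 1.80. Whether any of these genes share reads was not checked, since neither positions nor sequences were used here.

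Taken alone in the model in place of morphology, the other scores had positive slopes too. Per 20 percentage points of BL rate they were 0.38 (SE 0.240) for ENSBTAG00000020895 to 0.67 (0.306) for ENSBTAG00000032183, and per unit of kinetic 1.23 (0.462) for ENSBTAG00000020895 to 2.45 (0.699) for ENSBTAG00000007881. The 3 scores share the 2 cows at 0. The test that does not repeat the choice is whether BL rate or kinetic adds to morphology in the same model.

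For BL rate no coefficient passed. The values lay between -0.10 (ENSBTAG00000007881, SE 0.328) and 0.12 (ENSBTAG00000032183, SE 0.300) per 20 points, with 5 of 6 below 0, as were 49.6% of all genes. None of the 6 genes passed in edgeR (FDR of 1.00 for each) or had an unadjusted p under 0.05, and none passed in DESeq2 or limma voom. Over all genes 0 passed in edgeR and 203 (1.58%) had an unadjusted p under 0.05, and 0 passed in the other tools. The widest 95% interval, that of ENSBTAG00000007881, ran from -0.78 to 0.58.

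For kinetic, the coefficient of ENSBTAG00000046848 was -1.04 per unit (SE 0.607, 95% interval -2.3 to 0.21), that is, lower in cows with faster blastocysts at equal morphology, but did not pass (edgeR, unadjusted p = 0.11, FDR = 0.999). ENSBTAG00000020895 had -0.61 (SE 0.581) and ENSBTAG00000014762 -0.44 (SE 0.673), and the other 3 genes lay between -0.16 and 0.07. By sign 5 of 6 coefficients were below 0, as were 41.9% of all genes, but that of ENSBTAG00000016424 was -0.00017 (SE 0.813). Of the 12868 genes 0 passed in edgeR, 297 (2.31%) had an unadjusted p under 0.05 and 0 passed in DESeq2 or limma voom. Among the 6 genes, the unadjusted p was under 0.05 for 2 in limma voom and for 0 in edgeR and DESeq2. For ENSBTAG00000016424, ENSBTAG00000007881 and ENSBTAG00000032183 the intervals reached more than 1 log2 unit per unit of kinetic on both sides of 0.

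**Figure D5:**
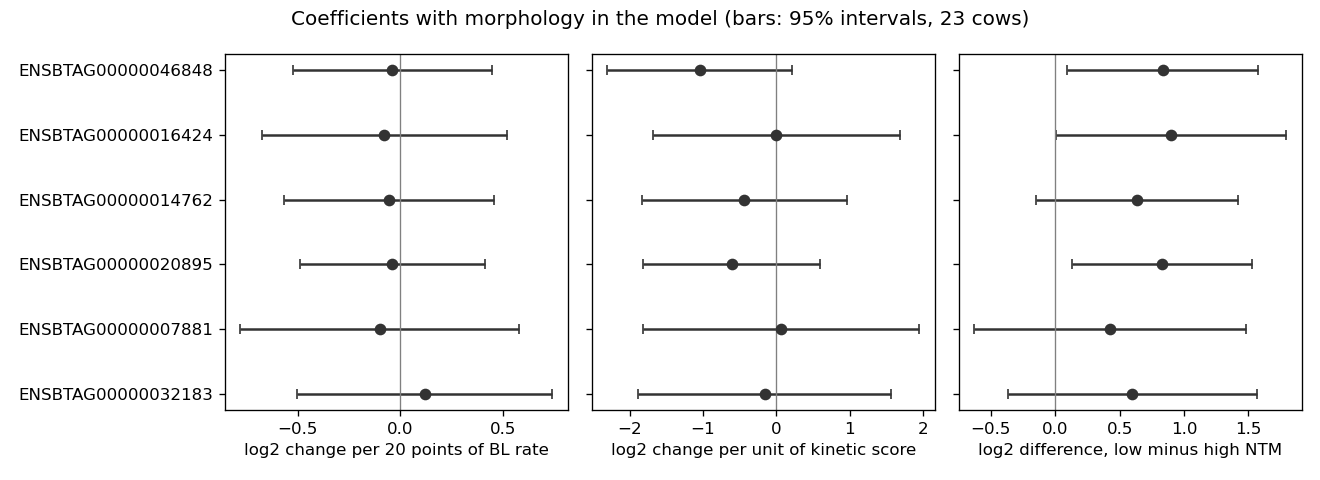
Coefficients (circles) with 95% intervals over 23 cows for BL rate per 20 percentage points, kinetic per unit and low minus high NTM class, each with morphology in the model, in log2 units. The BL rate values lie between -0.10 and 0.12, the kinetic values between -1.04 and 0.07, and all 6 NTM values are above 0.

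At equal morphology the fitted levels of the 6 genes were higher in the low-NTM cows than in the high-NTM cows, without passing the test. As measured, ENSBTAG00000046848 had a median of 1.62 cpm in the 8 low-NTM cows (0.735 to 3.64) and 1.22 cpm in the 15 high-NTM cows (0.0444 to 3.37), and ENSBTAG00000020895 had 5.30 (2.67 to 11.3) and 3.65 cpm (0.311 to 9.50), so that the classes overlapped. The coefficients were 0.83 (SE 0.359) for ENSBTAG00000046848, 0.90 (0.433) for ENSBTAG00000016424, 0.63 (0.380) for ENSBTAG00000014762, 0.83 (0.339) for ENSBTAG00000020895, 0.43 (0.510) for ENSBTAG00000007881 and 0.60 (0.468) for ENSBTAG00000032183, all 6 above 0, as were 49.7% of all genes. None passed in edgeR (FDR of 0.171 to 0.642), DESeq2 or limma voom. The unadjusted p was under 0.05 for 3 of the 6 genes, beside 22.6% of all genes (10.7% with a higher level in the low-NTM cows), and the median coefficient was 0.73 beside -0.0016 over all genes. Of all genes, 0 passed in edgeR and limma voom and 181 in DESeq2. With the first principal component in the model the coefficient of ENSBTAG00000007881 was -0.04. The granulosa cells had been collected before semen of either class was used. The bull, sampling date, age and RNA integrity of each cow were not used here, and their part in these values was not tested.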

How the data were processed

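The authors deposited raw counts, that is, for each library the read pairs that HTSeq-count assigned to an Ensembl gene, with no normalization. Before counting they removed adapters with cutadapt, trimmed with PRINSEQ and mapped to the UMD3.1 genome with STAR, and the counting used strand. From these counts, the genes that reached 1 cpm in 3 or more of the 23 cows were kept (12868 of 24615), scaled by TMM and fitted with edgeR's quasi-likelihood regression (edgeR 4.0.16, R 4.3.3) on morphology and NTM class, with BL rate (per 20 percentage points) or kinetic added. P-values were adjusted over all 12868 genes by the Benjamini-Hochberg method at an FDR of 0.05. Intervals are 95% t intervals, and for the Poisson values they cover counting error only. The depth was 15525201 to 27074496 counts per cow.

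Correlations used log2 cpm (prior count 2), residuals by least squares on morphology and NTM class, and two-sided permutation tests of 100000 resamples (Python 3.11.15, numpy 2.4.6, scipy 1.17.1). The alternatives were DESeq2 1.42.0, limma 3.58.1 (voom with sample quality weights), other scaling, other low-count filters, other covariates and other sets of cows. The regression was tested on simulated data.

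The 6 genes, the tests and the lists were chosen with earlier results of these data known. The genes named are the 6, the next 2 by the rule of choice, and, of the 3 tested genes most like each, the nearest and ENSBTAG00000014465. The reference gene table matched 0 of the 24616 identifiers, so planned lists of cell type markers, interferon response, matrix and cytokine genes were not run. The labels give 1 library per cow, with no repeat library. The study adjusted the scores for the bull and fitted age, RNA integrity and date, which were not used here, and corrected for GC content and length, which was not done here. Its low-count filter left 10891 genes, the number that a filter of 1 cpm in at least 90% of the cows left here. Only 1 of the 6 genes passed that filter, and whether the study tested the other genes was not checked.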

Additional observations from a re-analysis of the deposited data

Results flagged for a closer look

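Cow 8, a low-NTM cow with a morphology score of 2, was in neither the choice of the genes nor the fits, and its levels were looked at separately, with all 24 libraries scaled together. They are values of 1 library that the study set aside as an outlier, without a test. ENSBTAG00000046848 was at 5.92 cpm and ENSBTAG00000016424 at 2.45 cpm, each above all of the other 23 cows, whose highest values were 3.65 and 2.00. ENSBTAG00000014762, at 2.4 cpm, ranked 3 from the top. These 3 values and those of ENSBTAG00000020895 (4.91 cpm, rank 10 of 24) and ENSBTAG00000007881 (2.35 cpm, rank 11) were above the 4 other cows with a score of 2, whose highest values were 1.50, 0.771, 1.23, 4.73 and 1.85 cpm in the same order. ENSBTAG00000032183, at 2.56 cpm (rank 13), was within their range of 0.331 to 3.42 cpm. These 4 cows (12, 16, 17 and 18) were all high-NTM cows, so cow 8 differed from them in NTM class as well. Cows 12 and 16 were also those below the median cow for all 6 genes. With cow 8 included all 6 slopes stayed above 1. No value among the 8 low-NTM cows of the fits stood apart by Dixon's test, with 6 genes tested at its 95% critical value. The high-NTM cows, among them cow 3 with its high value of ENSBTAG00000007881, were not put to this test.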

How the results depend on the processing

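The number of the 6 genes with a slope above 1 was 4 to 6 under the other alternatives and 1 where a gene needed 1 cpm in at least 90% of the cows, since only 1 of the 6 then remained in the test. In the 21 cows with blastocysts it was 2 with the first principal component as covariate, a fit chosen after the data had been seen, as were that of the high-NTM cows with blastocysts alone (6), that without cow 24 as well (5) and the leaving out of each of the 21 cows (4 to 6). Leaving out each of the 23 cows gave 5 to 6. The number of correlated pairs was 9 by Spearman's rho, 11 without the NTM covariate, 1 with the component, 2 to 8 when each cow was left out, and 5 under the other alternatives. Of the 6 genes, 0 passed for BL rate, kinetic or NTM class in any alternative run.

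Coefficients near 0 changed sign. For BL rate, with the component as covariate, they were 0.067 for ENSBTAG00000046848, 0.11 for ENSBTAG00000016424, 0.16 for ENSBTAG00000014762, 0.088 for ENSBTAG00000020895 and 0.17 for ENSBTAG00000007881. In limma voom they were 0.076 for ENSBTAG00000016424 and 0.0081 for ENSBTAG00000014762. For kinetic, ENSBTAG00000016424 had 0.0027 with DESeq2 size factors, 0.028 in DESeq2, 0.12 in limma voom, 0.42 without the NTM covariate and 0.29 with the component, ENSBTAG00000007881 had -0.43 in limma voom and -0.66 without cows 1 and 15, and ENSBTAG00000032183 had 0.0060 without the NTM covariate. For NTM class, ENSBTAG00000007881 had -0.043 with the component. The residual correlations of ENSBTAG00000007881 were -0.0049 with ENSBTAG00000016424 and -0.094 with ENSBTAG00000032183 once the component was removed. Leaving out each cow changed the sign of the BL rate coefficient of ENSBTAG00000046848 (-0.20 to 0.11), ENSBTAG00000016424 (-0.18 to 0.10), ENSBTAG00000014762 (-0.21 to 0.063), ENSBTAG00000020895 (-0.21 to 0.10), ENSBTAG00000007881 (-0.22 to 0.19) and ENSBTAG00000032183 (-0.10 to 0.30), of the kinetic coefficient of ENSBTAG00000016424 (-0.68 to 0.34), ENSBTAG00000007881 (-0.30 to 0.57) and ENSBTAG00000032183 (-0.76 to 0.13), and of the correlation of ENSBTAG00000007881 and ENSBTAG00000032183 (-0.042 to 0.198). The cause of these changes was not tested.

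No paired analysis was possible because the labels give no number that ties a cow of one NTM class to a cow of the other. With 0 to 25 counts per gene in cows 1 and 15, the levels of these cows rest on few reads.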
